A study of Mus musculus with 12 samples.

Results

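The nuclear-encoded subunits of the respiratory chain and of ATP synthase were followed in mouse prostate. Members were the genes of the deposited table whose symbols follow the naming patterns of complex I (Nduf), complex II (Sdh), complex III (Uqcr), complex IV (Cox4 to Cox8) and complex V (Atp5). The pattern matched 89 of 23284 genes, and no measured value was used to choose them. Of the 89, 81 encode subunits of complexes I to V. The other 8 were classed as assembly factors or homologues of subunits. They are the complex I assembly factors Ndufaf1 to Ndufaf4, and Ndufa4l2, Cox7a2l, Atp5s and Atp5sl. Ndufa4 was counted with complex IV, where its protein is now placed.

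Whole prostate was taken at 4 months of age from mice that carry a null allele on both chromosomes (null prostate) and from wild-type mice, with 6 libraries each. All animals had a mixed 129/SvImJ and C57Bl/6J background. RNA with poly-A tails was sequenced on an Illumina HiSeq instrument, and the deposited values are on a log2 scale with an unknown depth per library. Nothing in the labels says that each library is a separate animal, so a p-value speaks only of the spread among libraries, and that spread may be technical.

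In the inner mitochondrial membrane, complexes I and II pass electrons from NADH and succinate to ubiquinone, complex III passes them to cytochrome c, and complex IV passes them to oxygen. Complexes I, III and IV pump protons, and complex V, the ATP synthase, uses the proton gradient to make ATP. A small set of subunits is encoded in mitochondrial DNA, which is not analysed here, and all others are nuclear genes, several of which have a second isoform used in muscle, lung or testis.

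With the values as deposited, most respiratory chain subunits did not pass the test between null and wild-type prostate. The differences of those that did were small. Of the 84 members tested, 36 (42.9%) passed an adjusted p under 0.05 with limma, 13 higher and 23 lower, where 53.1% of all 15096 tested genes passed. By direction, 28.0% of all tested genes were called higher and 25.1% lower. As deposited, the members' share of lower calls was near that background, which did not hold under other scalings. The median difference, null minus wild type, was -0.07 over members and 0.01 over all tested genes, and the median size of the difference was 0.13 over members and 0.25 over all tested genes. No tested member reached a called difference of 1, a 2-fold change, which 7.01% of all tested genes did, and 12 had a called difference of at least 0.25, against 42.5% of all tested genes. A called difference of at least 0.5 was found for 2 members, Cox7a1 and Cox6b2, both tissue isoforms of complex IV and both higher in null prostate, against 22.3% of all tested genes. The 6 null and 6 wild-type libraries did not overlap for 17 members, against 32.6% of all tested genes. Null libraries lay above for 4 members (17.4% of all tested genes) and below for 13 (15.2% of all tested genes).

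The split into higher and lower calls depended on how the libraries were scaled. It was 8 higher and 37 lower after quantile normalization and 3 higher and 40 lower after upper quartile scaling, each of which called 54.6% of all tested genes. Over all tested genes the split was 4224 higher and 3789 lower as deposited, 4073 and 4174 after quantile normalization, and 3367 and 4869 after upper quartile scaling, with a median difference of -0.06 under the last. Called members numbered 45 of 84 after quantile normalization and 43 after upper quartile scaling, so most members passed there. Their share of lower calls was then above that of all tested genes, a difference that was not tested. Earlier results of these data had divided the libraries into 4 sets of 3 alike libraries (null 1, 2 and 5; null 3, 4 and 6; wild type 1 to 3; wild type 4 to 6). Over the 4 set means, where 14.5% of all tested genes were called, 3 members were called: Cox7a1 and Uqcrb as higher (7.58% of all tested genes were) and Ndufa8 as lower (6.96% of all tested genes were). These 3 and no others among the 20 named called members kept their call under every alternative tried. With a random block for each set, where 33.0% of all tested genes were called, 3 members were higher and 13 lower. Without wild-type libraries 4 to 6 the number of higher members was 4, and without null libraries 3, 4 and 6 it was 8.

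Most members were highly expressed. Of 52 members with a mean of at least 10 on the log2 scale, 3 were higher and 18 lower (40.4% called), and of all 3633 tested genes at that level 1388 were higher and 859 lower (61.8% called); the difference between these shares was not tested. After quantile normalization the members were 0 higher and 29 lower and the genes at that level 1102 higher and 1280 lower, and after upper quartile scaling 0 and 29, and 1134 and 1224. In bulk tissue, fewer cells of a type and less RNA per cell cannot be told apart.

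**Figure D1:**
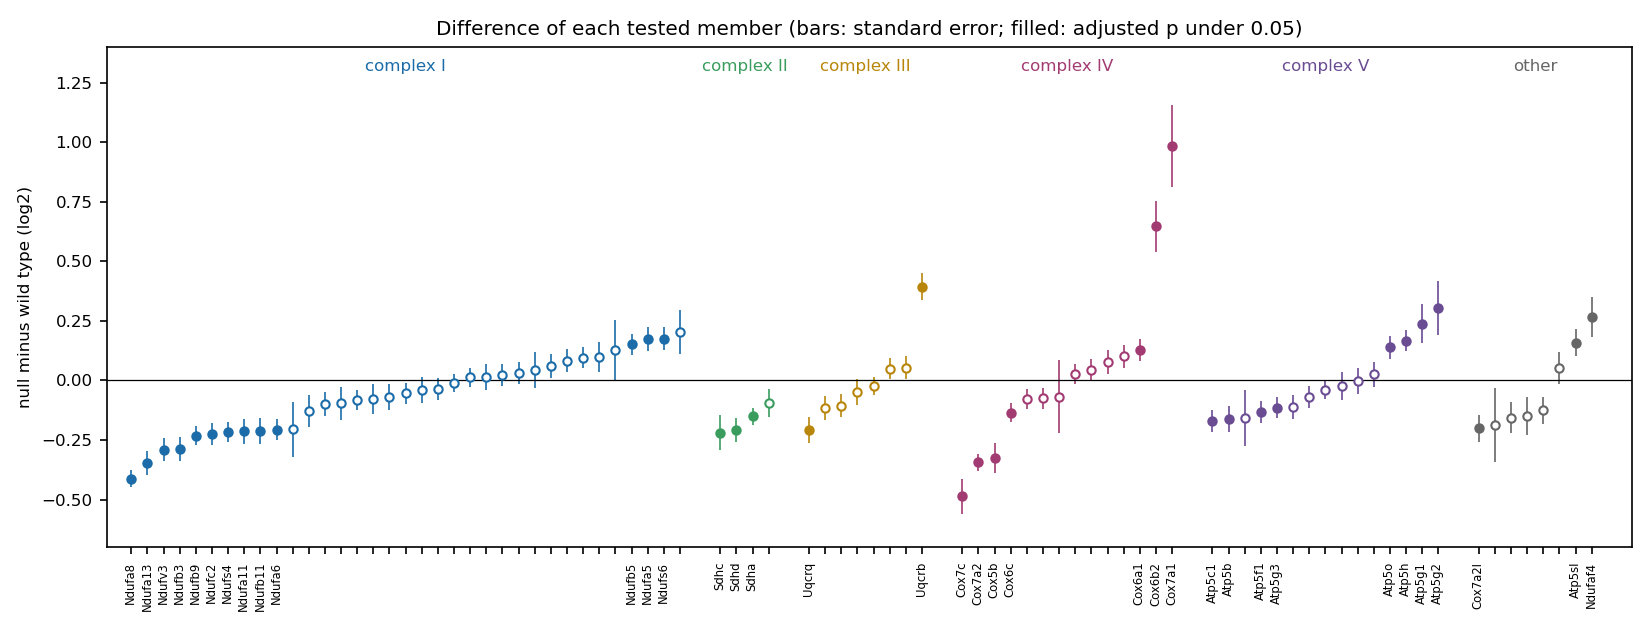
Difference of each of the 84 tested members, null minus wild type on the log2 scale (vertical axis), in order of size within each complex, with bars for the standard error and filled points, with the gene named below, for an adjusted p under 0.05. Cox7a1 at 0.98 and Cox6b2 at 0.65 stand above all other members, and Cox7c at -0.49 and Ndufa8 at -0.41 are the lowest.

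Promoters of the members whose changes are described first are shown here, each with 250 bases before and 50 bases after the start of the gene, as RefSeq gives them on build GRCm38.p6. The deposited values come from the older build mm9, per the submitters' processing notes, and no coordinates were carried between the builds. Cox7a1 (chr7:30183921-30184220, plus strand) and Cox7a2 (chr9:79759804-79760103, minus strand) are shown because these isoforms of 1 subunit changed in opposite directions, Ndufa8 (chr2:36049289-36049588, minus strand) because it had the smallest p-value of all members, and Sdha (chr13:74350191-74350490, minus strand) and Sdhd (chr9:50603800-50604099, minus strand) because both were lower in null prostate without overlap. Sdha and Sdhd are 2 of the 13 members that were lower without overlap. Capitals mark matches to 4 motifs known from promoters of mitochondrial genes.
Cox7a1: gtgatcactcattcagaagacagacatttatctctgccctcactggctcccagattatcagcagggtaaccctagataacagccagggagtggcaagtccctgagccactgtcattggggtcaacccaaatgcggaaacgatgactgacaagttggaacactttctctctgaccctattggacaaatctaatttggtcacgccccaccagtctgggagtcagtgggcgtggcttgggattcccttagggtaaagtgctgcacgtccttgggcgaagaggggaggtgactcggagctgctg
Cox7a2: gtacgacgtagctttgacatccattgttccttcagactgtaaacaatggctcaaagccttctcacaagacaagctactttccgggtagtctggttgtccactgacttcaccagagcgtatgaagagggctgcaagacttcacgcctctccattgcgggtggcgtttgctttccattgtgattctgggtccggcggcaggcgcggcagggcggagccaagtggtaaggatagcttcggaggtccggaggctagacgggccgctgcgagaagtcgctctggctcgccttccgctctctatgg
Ndufa8: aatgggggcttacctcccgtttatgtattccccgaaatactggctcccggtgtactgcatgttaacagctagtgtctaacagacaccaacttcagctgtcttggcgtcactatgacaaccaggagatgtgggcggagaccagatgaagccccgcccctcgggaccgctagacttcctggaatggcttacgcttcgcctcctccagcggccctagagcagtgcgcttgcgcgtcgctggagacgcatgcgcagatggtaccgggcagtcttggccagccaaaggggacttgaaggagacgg
Sdha: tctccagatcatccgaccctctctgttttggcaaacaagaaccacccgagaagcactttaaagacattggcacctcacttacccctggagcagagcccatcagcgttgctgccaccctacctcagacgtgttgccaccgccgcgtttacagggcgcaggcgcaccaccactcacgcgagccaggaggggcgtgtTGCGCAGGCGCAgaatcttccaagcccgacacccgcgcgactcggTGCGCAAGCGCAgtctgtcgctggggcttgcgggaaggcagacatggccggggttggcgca
Sdhd: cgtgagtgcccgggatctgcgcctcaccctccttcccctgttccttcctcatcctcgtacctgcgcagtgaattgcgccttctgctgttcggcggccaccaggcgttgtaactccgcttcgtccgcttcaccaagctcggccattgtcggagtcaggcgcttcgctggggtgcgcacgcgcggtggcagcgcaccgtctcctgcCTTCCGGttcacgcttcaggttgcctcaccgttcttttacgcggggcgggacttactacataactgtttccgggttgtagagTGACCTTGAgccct

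Motifs were searched on both strands in the 71 of 89 members with an entry in the promoter table. The longer form of the NRF1 motif, whose letters are those in capitals in Sdha with any base in the middle, was in 7.04% of member promoters, 2.22% of the promoters of 10621 tested genes and 1.16% of all 27025 promoters of the same length. A shorter palindromic NRF1 form, which the longer form contains when its middle base is T, was in 8.45% of member promoters, 2.10% of those of tested genes and 1.07% of all promoters. The ETS motif CCGGAAG, which GABPA binds, was in 23.9% of member promoters, 17.6% of those of tested genes and 9.93% of all promoters. The YY1 motif was in 5.63% of member promoters, 1.51% of those of tested genes and 0.755% of all promoters. The ESRRA motif TCAAGGTCA was in 2.82% of member promoters, 0.348% of those of tested genes and 0.466% of all promoters. In this order of motifs the member shares rest on 5, 6, 17, 4 and 2 of 71 genes. Of 11 members called higher, 1, 3, 2, 1 and 0 held the motif. Of 18 members called lower, 1, 1, 1, 1 and 2 held it, and of 39 not called 2, 2, 14, 2 and 0. No difference between these shares was tested. In Sdha the longer NRF1 form has 2 matches, from base -56 to -45 and from base -11 to 1 counted from the start of the gene. In Sdhd the ETS motif stands on the opposite strand from base -46 to -40, and the ESRRA motif on the opposite strand from base 37 to 45. None of these motifs was found in the shown windows of Cox7a1, Cox7a2 and Ndufa8. These matches are descriptions of the letters and not of binding.

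Complex I, the NADH dehydrogenase, had 13 called members of 35 tested, 3 higher and 10 lower (37.1%), with a median difference of -0.05. Over all tested genes 53.1% were called. The split was 2 higher and 16 lower after quantile normalization and 0 higher and 16 lower after upper quartile scaling. Ndufa8, an accessory subunit on the side of the intermembrane space, was lower: its level in null libraries was 9.77 at the lowest, 9.87 at the median and 9.90 at the highest, and in wild-type libraries 10.24, 10.28 and 10.29. Every null library thus lay below every wild-type library, and the spread within each genotype was small beside the gap. The difference was -0.41 ± 0.04 (SE, n = 6 each), a 1.33-fold lower level, with an adjusted p of 2.93e-07 in limma (0.031 over set means).

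Ndufa13, an accessory subunit also known as GRIM-19, had values of 10.37, 10.57 and 10.65 (lowest, median, highest) in null libraries and 10.82, 10.92 and 10.97 in wild-type libraries. Its difference was -0.35 ± 0.05 (SE) with an adjusted p of 5.53e-05 in limma. Ndufv3, a small subunit beside the flavoprotein that takes electrons from NADH, had values of 10.28, 10.41 and 10.49 in null libraries and 10.58, 10.69 and 10.77 in wild-type libraries. The groups did not overlap for either gene. Ndufb3 and Ndufb9, accessory subunits of the membrane arm, differed by -0.29 ± 0.05 and -0.23 ± 0.04 (SE), and their null and wild-type libraries did not overlap. Over set means the limma adjusted p of these 4 genes was between 0.066 and 0.161. Of the 8 further called members, 5 (Ndufc2, Ndufs4, Ndufa11, Ndufb11 and Ndufa6) were lower by 0.21 to 0.23 on the log2 scale and 3 (Ndufb5, Ndufa5 and Ndufs6) higher by 0.15 to 0.18. The differences of these 3 kept their sign under both scalings, but only Ndufa5 kept its call after quantile normalization and none did after upper quartile scaling. The other member called higher after quantile normalization was Ndufab1, which was not called as deposited.

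The calls of complex I lay outside its catalytic core. Of the 7 core subunits, which hold the flavin, the iron-sulfur clusters and the ubiquinone site, limma called 0, with 0 at an unadjusted p under 0.05 and 0 by the exact rank-sum test. Quantile normalization and upper quartile scaling each called 1 of them as lower. Their differences ran from -0.07 to 0.08, with a median of 0.01. Of 28 accessory subunits tested, 13 were called, 3 higher and 10 lower (46.4%), with a median of -0.09. The division into core and accessory subunits was looked at after the values were seen, and the difference between them was not tested. The accessory subunit Ndufa1 ranged from 10.85 to 11.40 in null libraries and from 11.04 to 11.24 in wild-type libraries, with a difference of 0.04 ± 0.07 (SE), and the groups overlapped.

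Ndufs5, an accessory subunit, was the only complex I gene that was not tested. Its values of 2.64 to 3.16 in null libraries and 2.17 to 3.12 in wild-type libraries lay below 3.51, the 95th percentile of 1123 olfactory receptor genes, which mark the floor of undetected genes. BC002163, an annotated pseudogene with 99.4% identity to Ndufs5 over 319 bases, was listed at 8.59 to 8.73 in null libraries and 8.74 to 8.88 in wild-type libraries. Its difference was -0.18 ± 0.04 (SE) with an adjusted p of 0.00352 in limma (0.256 over set means). Reads of the gene and of such a copy can be placed on either, and the sources used here do not say how the authors placed them.

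**Figure D2:**
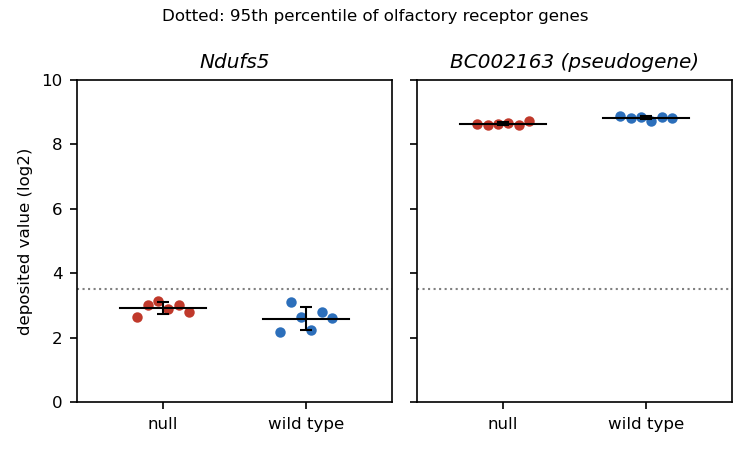
Deposited log2 values of Ndufs5 and of its near-identical pseudogene BC002163 in 6 null and 6 wild-type libraries, with the mean and SD, and the floor of undetected genes at 3.51 as a dotted line. Ndufs5 lies under the floor in all 12 libraries and the pseudogene at 8.59 to 8.88.

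A near-identical pseudogene, with at least 95% identity over at least 100 bases, was annotated for 22 of the 89 members, and the values of these genes are uncertain for the same reason. Their median level was 9.60, and that of the 60 other members outside the tissue isoforms was 10.69. Of the 22, 21 were tested and 13 were called, 6 higher and 7 lower. Without them 7 members were called higher and 16 lower of 63 tested. The 13 are Uqcrb, Cox7c, Cox6c, Ndufb3, Ndufb11, Ndufs6, Atp5c1, Atp5f1, Atp5h, Atp5o, Atp5g1, Atp5g2 and Cox7a2l. Ndufa8, Ndufa13, Ndufv3, Ndufb9, Cox5b, Cox7a1, Cox7a2, Cox6b2 and the 4 Sdh genes have no such pseudogene. Of these, Ndufa13 and Ndufb9 each share a stretch with 1 other gene that is not annotated as a pseudogene. It is 375 bases long for Ndufa13 and 202 for Ndufb9, at 95% identity or more. The values of Ndufa13 and Ndufb9 may thus be uncertain for the same reason.

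Complex II, the succinate dehydrogenase, is made of 4 nuclear-encoded subunits and has none from mitochondrial DNA. All 4 had lower means in null prostate under each scaling. Over 12 libraries 3 were called (75.0%, against 53.1% of all tested genes). Sdha, the flavoprotein that oxidises succinate, had values of 11.92, 11.95 and 12.01 in null libraries and 12.07, 12.10 and 12.14 in wild-type libraries (lowest, median, highest). The groups did not overlap, and the difference was -0.15 ± 0.03 (SE, n = 6 each) with an adjusted p of 0.00207 in limma. Sdhd, one of the membrane anchors, had values of 10.92, 11.09 and 11.20 in null libraries and 11.28, 11.29 and 11.31 in wild-type libraries, again without overlap. Its difference was -0.21 ± 0.05 (SE) with an adjusted p of 0.00249. Sdhc, the other anchor, differed by -0.22 ± 0.07 (SE, adjusted p = 0.0205) with overlapping groups, and Sdhb, the iron-sulfur subunit, by -0.09 ± 0.06 (SE, adjusted p = 0.206).

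The null libraries themselves differed in complex II. The mean deviation of the 4 genes from the wild-type mean was -0.23, -0.26 and -0.24 in null libraries 1, 2 and 5 and -0.09, -0.08 and -0.10 in null libraries 3, 4 and 6, and it ran from -0.04 to 0.03 in wild-type libraries. Sdhd averaged 10.99 in null libraries 1, 2 and 5, 11.18 in null libraries 3, 4 and 6, and 11.29 in each wild-type set. The wild-type sets differed for the other membrane anchor and for Sdhb, in opposite directions that cancel in the mean. Sdhb averaged 11.13 in wild-type libraries 1 to 3 and 10.97 in 4 to 6, and Sdhc 10.69 and 10.92. In null libraries 3, 4 and 6 Sdhb averaged 11.05 and Sdhc 10.67. Over set means limma called 0 of the 4 genes, with 0 at an unadjusted p under 0.05, and with a random block for each set it called Sdhd alone.

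**Figure D3:**
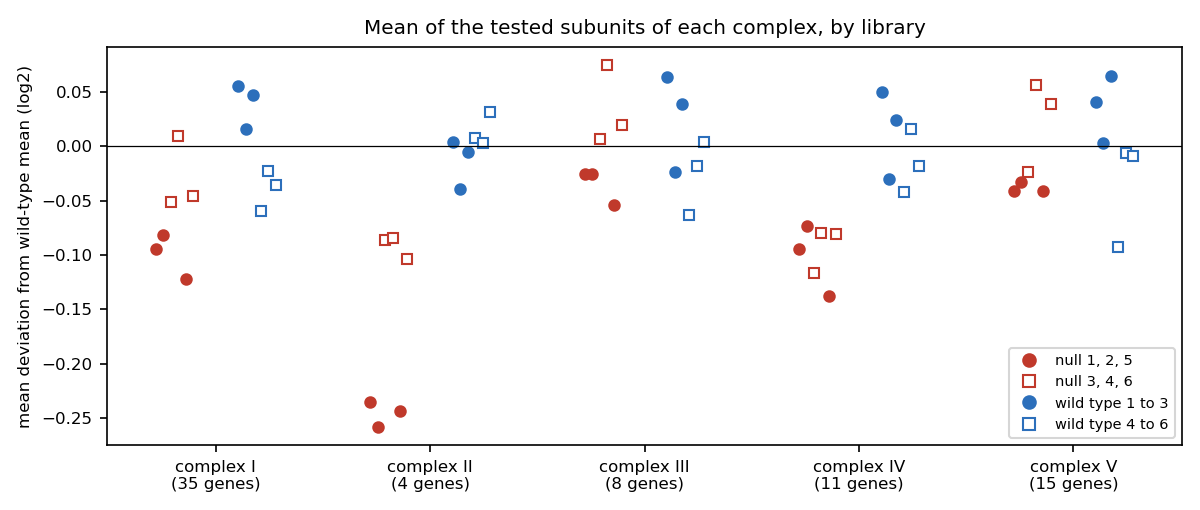
Mean deviation of the tested subunits of each complex from their wild-type mean (vertical axis, log2) in each library, null left of wild type, with filled circles and open squares for the library sets and complex IV without its tissue isoforms. Null libraries lie below all wild-type libraries for complexes II and IV and overlap with them for complexes I, III and V. For complex IV the mean was lowered mostly by Cox7c, Cox7a2 and Cox5b.

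Complex III, the cytochrome bc1 complex, had 2 called members of 8, 1 in each direction, where 53.1% of all tested genes were called. The split was 1 higher and 3 lower under either other scaling. Uqcrb, known as a ubiquinone-binding subunit, was higher. Its values were 9.71, 9.76 and 9.97 in null libraries and 9.31, 9.41 and 9.53 in wild-type libraries (lowest, median, highest), with no overlap. The difference was 0.39 ± 0.06 (SE, n = 6 each), 1.31-fold, with an adjusted p of 3.93e-05 in limma (0.047 over set means), and it was 0.34 after quantile normalization. Uqcrb has 3 near-identical pseudogenes. Uqcrq, a small membrane subunit, ranged from 10.77 to 11.01 in null libraries and from 10.99 to 11.16 in wild-type libraries, which overlap at the edge, and differed by -0.21 ± 0.05 (SE, adjusted p = 0.00444). Without wild-type libraries 1 to 3 only 1 member of the complex was called. The 6 others were not called over 12 libraries. Of these, the hinge protein gene Uqcrh differed by -0.11 ± 0.05 (SE) and the core protein gene Uqcrc2 by 0.05 ± 0.05, against -0.06 after quantile normalization and -0.02 after upper quartile scaling.

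Complex IV, the cytochrome c oxidase, had 7 called members of 14 tested, 3 higher and 4 lower, where 53.1% of all tested genes were called. The split was 2 higher and 6 lower under either other scaling. The called tissue isoforms were higher, while most of the called ubiquitous subunits were lower. Of 11 ubiquitous subunits, 4 were lower (Cox7a2, Cox7c, Cox5b and Cox6c) and 1 higher (Cox6a1, by 0.13 on the log2 scale, against 0.01 after quantile normalization). The mean deviation of the 11 from the wild-type mean ran from -0.14 to -0.07 in null libraries. In wild-type libraries it ran from -0.04 to 0.05, so that the genotypes did not overlap. Most of this lower mean came from Cox7c, Cox7a2 and Cox5b, which differed by -0.49, -0.34 and -0.33. The other ubiquitous subunits went in both directions, from -0.14 (Cox6c) to 0.13 (Cox6a1).

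Cox7a2, the form of subunit 7a used in most tissues, had values of 10.33, 10.40 and 10.42 in null libraries (lowest, median, highest). In wild-type libraries they were 10.66, 10.75 and 10.76. All null libraries lay below all wild-type libraries. Its difference was -0.34 ± 0.04 (SE, n = 6 each), a 1.27-fold lower level, with an adjusted p of 1.71e-06 in limma (0.053 over set means). Cox7a1, the form of the same subunit that heart and skeletal muscle use, went the other way. Its values were 5.91, 6.23 and 6.69 in null libraries and 4.83, 5.31 and 5.78 in wild-type libraries, also without overlap, and above the floor of 3.51 in all 12. The difference was 0.98 ± 0.17 (SE, n = 6 each), 1.98-fold, with an adjusted p of 0.000251 in limma (0.049 over set means). The level of Cox7a1 minus that of Cox7a2 was -4.09 ± 0.32 in null libraries and -5.42 ± 0.29 in wild-type libraries (SD, n = 6 each). Scaled to transcript length, it was -3.35 in null and -4.68 in wild-type libraries on the log2 scale per kilobase, so Cox7a2 remained the higher of the pair in both genotypes.

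Cox6b2, the testis form of subunit 6b, had values of 5.67, 5.99 and 6.29 in null libraries and 5.26, 5.33 and 5.42 in wild-type libraries. The groups did not overlap, and the difference was 0.65 ± 0.11 (SE), 1.57-fold, with an adjusted p of 0.000163 in limma (0.072 over set means). The ubiquitous Cox6b1 ranged from 11.51 to 11.66 in null libraries and from 11.35 to 11.64 in wild-type libraries and was not called. Per kilobase the level of Cox6b2 minus that of Cox6b1 was -5.44 in null and -6.01 in wild-type libraries on the log2 scale. Cox4i2, the lung form of subunit 4, was low in both genotypes, at 4.23 to 4.80 in null and 4.27 to 4.94 in wild-type libraries, with a difference of -0.07 ± 0.15 (SE). The muscle forms Cox6a2 and Cox8b and the testis forms Cox7b2 and Cox8c were too low to test, with medians from 2.66 to 3.55 in null libraries and from 2.82 to 3.53 in wild-type libraries.

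**Figure D4:**
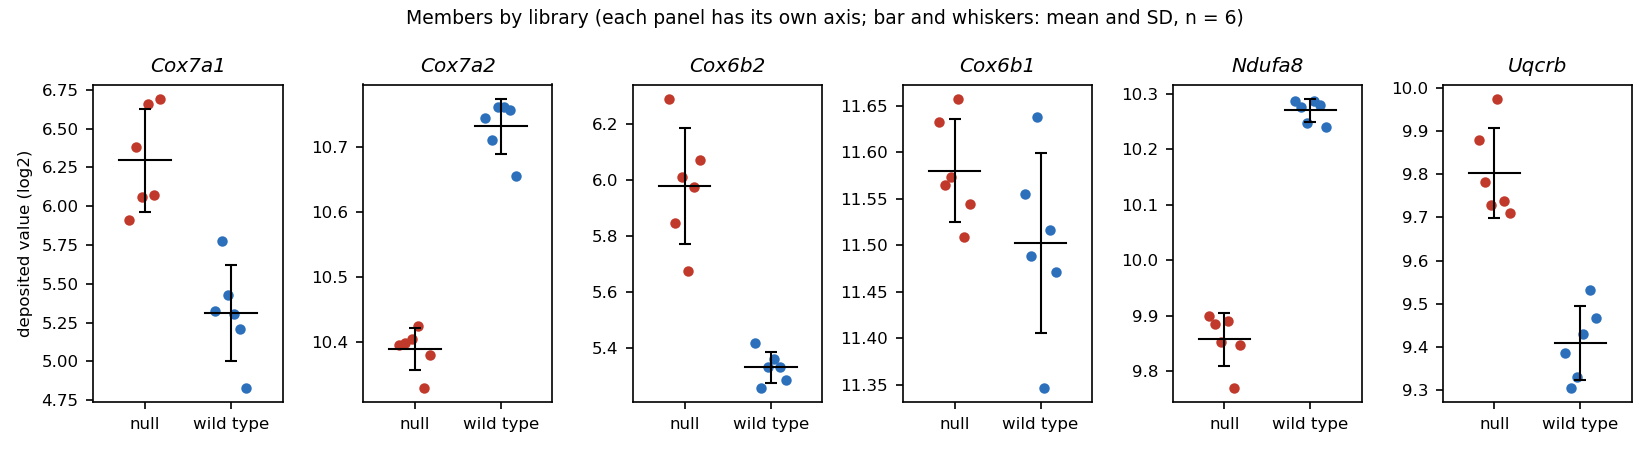
Deposited log2 values of 6 members in 6 null (left) and 6 wild-type (right) libraries, with mean and SD, each on its own axis. Cox7a1, Cox6b2 and Uqcrb lie higher in null libraries, Cox7a2 and Ndufa8 lower, all without overlap, and Cox6b1 overlaps.

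Cox7a1 is known from heart, skeletal muscle and brown fat, and markers of muscle and fat were measured in the same libraries. Of 9 skeletal muscle markers 7 were tested, with 2 higher in null prostate (Acta1 by 0.45 and Mylpf by 0.50) and 3 lower (Myh1 by -2.90, Myh2 by -1.21 and Actn3 by -0.73). Their summed level, dominated by Acta1, was 11.70 to 12.28 in null libraries and 11.50 to 11.64 in wild-type libraries. Of 7 white fat markers 5 were called higher over 12 libraries, 2 by the exact rank-sum test and 0 by limma with a random block for each set, with a summed level of 7.03 to 11.11 in null and 6.94 to 8.70 in wild-type libraries. Null library 2 stood apart, with Adipoq at 3.81 against 5.65 to 7.59 in the other null libraries. None of the 3 brown fat markers was high enough to test, and the defining one, Ucp1, averaged 3.22 ± 0.46 in null and 2.82 ± 0.62 in wild-type libraries (SD, n = 6 each), under the floor of 3.51. The part of muscle and white fat in the level of Cox7a1 was not tested. All 4 sperm markers were likewise too low to test, while the testis form Cox6b2 was above the floor in all 12 libraries.

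Cox7c, a small membrane subunit, had values of 6.94, 7.01 and 7.23 in null libraries and 7.43, 7.50 and 7.63 in wild-type libraries (lowest, median, highest). The difference was -0.49 ± 0.07 (SE, n = 6 each), with an adjusted p of 6.66e-05 in limma (0.077 over set means). Cox7c has 4 near-identical pseudogenes; Gm10012, the only one of them matched in the table, had values of 3.60 to 3.78 in null libraries and 3.41 to 3.97 in wild-type libraries. Cox5b, a zinc-binding subunit on the matrix side, had values of 8.32, 8.47 and 8.67 in null libraries and 8.72, 8.80 and 8.92 in wild-type libraries. Neither gene overlapped between genotypes, and the difference of Cox5b was -0.33 ± 0.06 (SE, adjusted p = 0.000555, and 0.080 over set means). Of the uncalled ubiquitous subunits, Cox4i1 had the highest mean, with 12.80 to 12.91 in null libraries and 12.86 to 13.02 in wild-type libraries and a difference of -0.08 ± 0.04 (SE). Cox8a differed by 0.04 ± 0.05 (SE), and by -0.06 after quantile normalization.

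Complex V, the ATP synthase, had 8 called members of 15, 4 higher and 4 lower (53.3%, near the 53.1% of all tested genes). The split was 2 higher and 7 lower after quantile normalization and 0 higher and 7 lower after upper quartile scaling. None of its genes separated the genotypes without overlap, against 32.6% of all tested genes. In the catalytic F1 sector, Atp5b, which encodes the beta subunit, had values of 13.89, 14.03 and 14.17 in null libraries and 14.15, 14.20 and 14.24 in wild-type libraries, and differed by -0.16 ± 0.06 (SE, adjusted p = 0.0239 in limma). The gamma subunit gene Atp5c1 differed by -0.17 ± 0.05 (SE, adjusted p = 0.00691). The alpha subunit gene Atp5a1 ranged from 13.36 to 13.59 in null libraries and from 13.58 to 13.62 in wild-type libraries, and its difference of -0.11 ± 0.05 (SE) had an adjusted p of 0.0747. Atp5b averaged 13.94 in null libraries 1, 2 and 5 and 14.14 in null libraries 3, 4 and 6, and 14.18 and 14.22 in the wild-type sets.

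The 3 genes Atp5g1, Atp5g2 and Atp5g3 encode the same mature c subunit of the rotor ring with different import signals, and all were called. Atp5g1 was 8.40, 8.54 and 8.59 in null libraries and 7.98, 8.29 and 8.54 in wild-type libraries (lowest, median, highest), a difference of 0.24 ± 0.08 (SE, adjusted p = 0.0253). Atp5g2, at 5.16 to 5.44 in null and 4.70 to 5.29 in wild-type libraries, differed by 0.31 ± 0.11 (SE, adjusted p = 0.0341). Atp5g3 was lower, with 11.68 to 11.86 in null and 11.83 to 11.98 in wild-type libraries and a difference of -0.11 ± 0.04 (SE, adjusted p = 0.0376). Scaled to length, Atp5g3 was the highest of the 3 in both genotypes, at 12.25 in null and 12.36 in wild-type libraries per kilobase, against 7.09 in null and 6.86 in wild-type libraries for Atp5g1 and 6.11 in null and 5.81 in wild-type libraries for Atp5g2. In the stalk that joins the sectors, Atp5h (subunit d) and Atp5o (the subunit that confers oligomycin sensitivity) were higher by 0.17 and 0.14, and Atp5f1 (subunit b) was lower by 0.13 on the log2 scale. Over set means, and with a random block for each set, limma called 0 of the 15 genes, with 0 at an unadjusted p under 0.05 over set means. Without wild-type libraries 4 to 6, or without null libraries 1, 2 and 5, 2 were called, and the count was 4 without wild-type library 4 or null library 5, and 5 without wild-type library 5, wild-type library 6 or wild-type libraries 1 to 3.

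Of the 8 assembly factors and homologues that share the naming pattern, 3 were called (37.5%, against 53.1% of all tested genes). Ndufaf4, which helps to assemble complex I, was higher by 0.27 ± 0.08 (SE, adjusted p = 0.0151 in limma), Atp5sl by 0.16 ± 0.06 (SE, adjusted p = 0.0307), and Cox7a2l, which takes part in joining complexes into supercomplexes, was lower by 0.20 on the log2 scale (adjusted p = 0.00726). None of these 3 was called over set means. Ndufaf1, Ndufaf2, Ndufaf3, Ndufa4l2 and Atp5s differed by -0.19 to 0.05 and were not called.

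Other genes of oxidative metabolism were described from lists chosen for their function. For each list, the shares to compare with are those of all tested genes, 53.1% called, 28.0% higher and 25.1% lower. The list of assembly factors, 25 tested, also held genes with other roles, such as Lrpprc and Pet112l. It had 5 higher and 8 lower (52.0%), with a median of -0.09, and 4 and 13 after upper quartile scaling. Lrpprc, which stabilises mitochondrial messenger RNAs, was higher by 0.74 ± 0.04, Pet112l, which takes part in charging glutamine tRNA in mitochondria, was lower with -0.97 ± 0.07, and Nubpl, which delivers iron-sulfur clusters to complex I, with -0.98 ± 0.12 (SE). All 3 also passed over set means with limma, at adjusted p between 0.0079 and 0.035. Of 12 tested electron carriers, dehydrogenases and related genes outside the naming pattern, 2 were higher and 3 lower, and the other higher one beside Dhodh was Hccs, a heme lyase for cytochromes, by 0.32. Dhodh, which feeds electrons from pyrimidine synthesis, was higher by 0.35, and the electron transfer flavoprotein genes Etfa and Etfb differed by -0.23 and -0.24.

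Among 19 tested regulators of mitochondrial biogenesis, 9 were higher and 0 lower in null prostate (47.4%), with a median difference of 0.18, against -0.07 for the respiratory chain members. They were also 9 higher and 0 lower after quantile normalization, and 9 higher and 2 lower after upper quartile scaling. Sirt1, a deacetylase that acts on PGC-1 alpha, averaged 9.14 ± 0.13 in null and 8.62 ± 0.09 in wild-type libraries (SD, n = 6 each). Polrmt, the RNA polymerase of mitochondria, averaged 8.93 ± 0.07 in null and 8.52 ± 0.11 in wild-type libraries. Yy1, a transcription factor, averaged 10.60 ± 0.06 in null and 10.33 ± 0.05 in wild-type libraries. Ppargc1b, a coactivator, differed by 0.86 ± 0.13 (SE). Sirt1, Polrmt and Ppargc1b passed over set means with limma, at adjusted p of 0.0249, 0.0478 and 0.0414, and Yy1 did not (0.0988). Ppargc1a differed by 0.05 ± 0.12 (SE) and Tfam, which packages mitochondrial DNA, by 0.02 ± 0.05, and neither was called. The difference between these regulators and the members was not tested.

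The tricarboxylic acid cycle, which supplies the chain with electrons, had 4 genes higher and 3 lower of 17 tested (41.2%), against 0 higher and 6 lower after quantile normalization and 1 higher and 6 lower after upper quartile scaling. Its most changed gene was Fh1, the fumarase that follows complex II in the cycle, with 10.30 ± 0.09 in null and 10.87 ± 0.09 in wild-type libraries (SD, n = 6 each), a difference of -0.57 ± 0.05 (SE, adjusted p = 0.0252 over set means). Ogdh and Dld, subunits of the 2-oxoglutarate dehydrogenase complex, were higher by 0.23 and 0.16 over 12 libraries, and neither was called over set means. Of 21 tested genes of import, carriers and porins, 4 were higher and 7 lower, against 2 higher and 9 lower after quantile normalization and 2 and 8 after upper quartile scaling. The isoforms of the ADP/ATP carrier, which exchanges ATP made by complex V, differed in direction. Slc25a4, the muscle form, averaged 10.79 ± 0.06 in null and 11.31 ± 0.04 in wild-type libraries, and Slc25a5, the more general form, 12.65 ± 0.17 in null and 12.20 ± 0.03 in wild-type libraries (SD, n = 6 each). Slc25a4 and the import receptor gene Tomm20, at -0.50 ± 0.05 (SE), passed over set means, and Slc25a5 did not (adjusted p = 0.0762). Chchd3, a protein of the cristae, differed by -0.36 ± 0.05 (SE, adjusted p = 0.0539 over set means).

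Glycolysis had 0 genes higher and 9 lower of 19 tested (47.4%), with a median of -0.08, and 0 higher and 10 lower under either other scaling. Eno1 was too low to test, averaging 2.90 in null and 3.06 in wild-type libraries, and Gapdh averaged 5.37 and 5.35. Near-identical copies were sought only for the 89 members, so low values in these lists are uncertain. Ldhb, a subunit of lactate dehydrogenase, was lower with 7.51 ± 0.31 in null and 9.06 ± 0.24 in wild-type libraries (SD, n = 6 each), a difference of -1.56 ± 0.14 (SE, adjusted p = 0.0159 over set means). Pfkm, a phosphofructokinase, and Ldha, the other main lactate dehydrogenase subunit, differed by -0.33 and -0.32, and neither passed over set means. Of 76 tested protein genes of the mitochondrial ribosome, which makes the subunits encoded in mitochondrial DNA, 10 were higher and 27 lower (48.7%), with a median of -0.05, and 4 higher and 34 lower after upper quartile scaling. With a random block for each library set, where 33.0% of all tested genes were called, the calls were fewer in all of these lists. Over all tested genes 2682 were then higher and 2302 lower. The block left 3 higher and 7 lower for the mitochondrial ribosome and 2 and 4 for assembly factors. Electron carriers and related genes had 1 and 1, biogenesis regulators 7 and 0, and the tricarboxylic acid cycle 1 and 1. Import, carriers and porins had 2 and 3, and glycolysis 0 and 5.

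**Figure D5:**
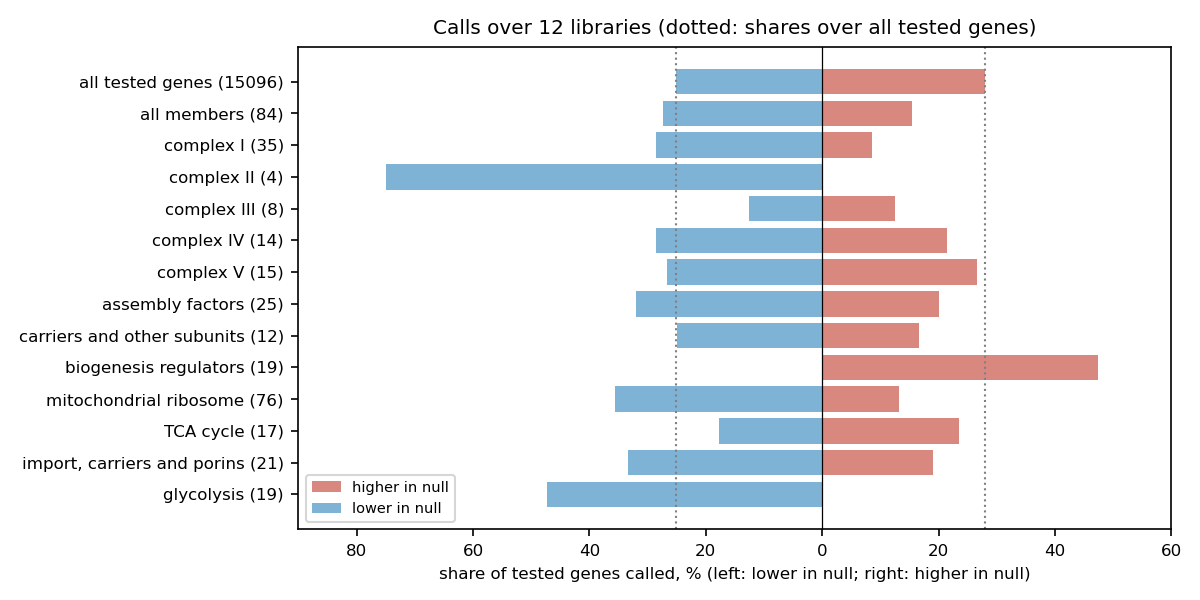
Share of tested genes called lower (left) and higher (right) in null prostate for all tested genes, the members, each complex and the related lists, with the number tested in brackets and dotted lines at the shares over all tested genes (25.1% and 28.0%). The biogenesis regulators have no lower calls and glycolysis no higher calls as deposited, and the members have 23 lower and 13 higher calls.

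Marker genes of other cell types also differed between genotypes, and their part in these results was not tested. Of 7 seminal vesicle markers 6 were tested and all were higher in null libraries, with a summed level of 16.71 to 20.26 in null and 6.39 to 11.61 in wild-type libraries. All 5 macrophage markers were lower, with summed levels of 10.25 to 10.63 in null and 11.06 to 11.95 in wild-type libraries. All 3 B cell markers were lower, with 5.38 to 6.06 in null and 7.002 to 8.25 in wild-type libraries. Of 6 luminal epithelial markers 2 were higher and 4 lower, with summed levels of 15.62 to 15.96 in null and 15.82 to 16.06 in wild-type libraries, and 3 of 4 basal markers were higher, with 11.74 to 12.30 in null and 11.37 to 11.53 in wild-type libraries. Of 5 smooth muscle and 3 endothelial markers limma called 0, with 0 and 1 at an unadjusted p under 0.05, though quantile normalization called 2 smooth muscle markers as lower.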

How the data were processed

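As deposited, all values are log2 values between 1.07 and 21.6, with no counts, so the depth is unknown and no count test was used. Per the labels' protocols, libraries came from poly-A selected RNA. Tools listed in the submitters' processing notes, without roles, are TopHat2 2.0.4, Cufflinks 2.0.2, CASAVA 1.8.2 and DESeq, with build mm9; which transformation gave the log2 values is not stated there. The 10 highest genes held 20.9% to 26.0% of the linear sum.

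The 15096 genes that reached 4 in 6 or more libraries were tested with limma 3.58.1 in R 4.3.3 (mean-variance trend, robust moderation, genotype as the only term), with Benjamini-Hochberg adjustment over all tested genes and a threshold of 0.05. Alternatives were other scalings, other filters, limma without trend and robust moderation, a rank-sum test, set means, a random block per set (correlation within a set 0.503), and each library or set left out. Members without a near-identical pseudogene were counted as an alternative chosen after seeing the data.

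Named members were Cox7a2, Cox5b, all Sdh genes and complex IV tissue isoforms, and in each complex up to 5 called members by adjusted p and the 2 uncalled members of highest mean. Up to 3 called genes were named per related list; Ppargc1b, Ppargc1a, Tfam, Slc25a5, Hccs, the c subunit genes and further called members were chosen after their values were seen. Members, lists and library sets were chosen with earlier results of these data known. Copies were sought with BLAST 2.17.0 against GENCODE M21 transcripts, which also gave lengths. Levels per kilobase assume that the deposited values were not already scaled to length, which is not stated. The targeted gene and some items that the naming rule covers are not reported here.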

Additional observations from a re-analysis of the deposited data

Results flagged for a closer look

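Within groups of 6 libraries, 5 values of members stood apart from the rest by Dixon's criterion, among 78 groups looked at; chance flags about 1 in 20 groups. Atp5d, the delta subunit gene of ATP synthase, was 11.65 in null library 4, where the other null libraries had 11.42 to 11.50, and 11.63 in wild-type library 1, where the others had 11.37 to 11.46. Cox6a2 was 1.57 in null library 6, with 2.89 to 3.36 in the other null libraries. Cox8b was 2.45 in null library 4, with 3.36 to 3.84 in the others, and 2.38 in wild-type library 5, with 3.29 to 3.74 in the others. Cox6a2 and Cox8b scatter around the floor of undetected genes and were not tested.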

How the results depend on the processing

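No paired analysis was possible because the labels give the genotypes no shared replicate numbers. Of 36 called members, 13 higher and 23 lower, the counts were 8 and 37 after quantile normalization, 3 and 40 after upper quartile scaling, 2 and 1 over set means and 3 and 13 with a random block per set. Only members without a near-identical pseudogene gave 7 higher. Leaving out libraries or sets gave 4 to 14 higher and 17 to 28 lower. Called members of complex I were 13, 1 over set means and 12 to 16 with libraries left out. Those of complex II were 3, 0 over set means, 1 with the block and 2 to 4 with libraries left out. Those of complex III were 2, 4 under both scalings, 1 over set means and with the block, and 1 to 3 with libraries left out. Those of complex IV were 7, 1 over set means and 6 to 8 with libraries left out. Those of complex V were 8, 0 over set means and with the block, and 2 to 8 with libraries left out: 4 without wild-type library 4 or null library 5, and 5 without wild-type library 5 or 6. Fewer values enter the fit over set means; for the other changes the cause was not tested. Of 20 named called members 17 lost their call over set means and 8 with the block, 6 of 10 named uncalled members were called under some alternative, and 0 reversed. Depth is unknown, so no detection limit can be given.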
